A study of Caenorhabditis elegans with 33 samples.

Results

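The oocyte and eggshell genes described here are 10 of the 20517 genes in the mRNA table of a study of ALG-1, ALG-2 and ALG-5, Argonaute proteins of the nematode Caenorhabditis elegans that bind microRNAs. They were taken by sequence name, and all 10 were in the table. Of these, 3 encode RNA-binding proteins of the growing oocyte: oma-1 (C09G9.6), oma-2 (ZC513.6) and puf-5 (F54C9.8). The yolk receptor gene is rme-2 (T11F8.3). The egg surface and eggshell genes are egg-1 (B0244.8), egg-2 (R01H2.3), cbd-1 (H02I12.1) and perm-2 (C44B12.1). The regulators deposited in the egg for the embryo are nos-2 (ZK1127.1) and pos-1 (F52E1.1).

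The hermaphrodite germ line makes sperm first, during the last larval stage, and then switches for good to oocytes. Growing oocytes take up yolk, coat themselves with proteins that will build the eggshell, and store mRNAs whose translation is held back by RNA-binding proteins until maturation or until the embryo needs them. The switch falls around the end of larval life, which is when mRNAs of this kind begin to accumulate.

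Messenger RNA came from whole late L4 larvae, with 3 libraries for each of 5 genotypes: alg-1(gk214) X, alg-2(ok304) II, alg-5(tm1163) I, alg-5(ram2) I and the wild type strain N2. Collection was 49 h after synchronization as L1 for 4 genotypes and 53 h for alg-1(gk214), whose larvae were matched by stage. For that mutant, genotype and collection time cannot be told apart. Small RNA was sequenced in 18 further libraries, which are described beside their values. Values are FPKM, fragment counts divided by transcript length and library size, so that levels are per length and can be set side by side between genes. Changes were fitted by limma on log2(FPKM + 1) over the 15174 genes that reached a genotype mean of 1 FPKM, a scale that understates changes of low genes. A gene is called when its Benjamini-Hochberg adjusted p over all of these genes is under 0.05. The labels do not say that the 3 libraries of a genotype came from separate cultures, so the p-values measure the spread between these libraries, which may be technical.

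The FPKM sums per library lay between 1182262 and 1299326. The alg-1 mRNA was at 13.0 ± 2.88 FPKM in alg-1(gk214), against 30.3 ± 2.05 FPKM in wild type (SD, n = 3 each). For alg-2 the levels were 1.94, 2.15 and 2.10 FPKM in alg-2(ok304), against 17.2, 15.6 and 13.3 FPKM in wild type. The alg-5 mRNA was at 9.84, 11.8 and 9.11 FPKM in alg-5(tm1163) and at 0.557, 0.996 and 0.607 FPKM in alg-5(ram2), against 9.75, 8.03 and 10.3 FPKM in wild type. The targeted mRNA was therefore low in 3 of the 4 mutants, and its level gives no check of the alg-5(tm1163) label. The larvae carried abundant sperm mRNAs, with 26 sperm genes summing to 2442 to 2939 FPKM in wild type. Of 10 early zygotic genes, 6 or 7 were listed at 0 in each genotype.

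In wild type larvae cbd-1 had the highest level of the 10, 48.8 ± 6.43 FPKM (SD, n = 3, as for all such values below), above 81.2% of the genes with any signal. CBD-1 is a chitin-binding protein of the vitelline layer on which the eggshell is assembled. Next came pos-1 at 14.2 ± 1.48 and rme-2 at 12.4 ± 2.09 FPKM, which did not differ beyond their spread. The following 5 lay within a narrow band: oma-1 at 7.80 ± 4.28, egg-2 at 6.88 ± 0.343, puf-5 at 6.54 ± 0.596, egg-1 at 6.53 ± 1.23 and oma-2 at 5.90 ± 2.12 FPKM. The spread of these 5 overlaps throughout, and that of perm-2, at 4.70 ± 2.58 FPKM, reaches into it. Then, far below, nos-2 was listed at 0, 0 and 0.0546 FPKM, so its mRNA was near the bottom of the table in larvae that already carried the other 9. Across genotypes cbd-1 stayed first and nos-2 last. Of the 10 genes, 8 had their highest mean in alg-1(gk214) and 2, cbd-1 and rme-2, in alg-5(ram2), and 5 had their lowest in alg-5(tm1163).

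**Figure D1:**
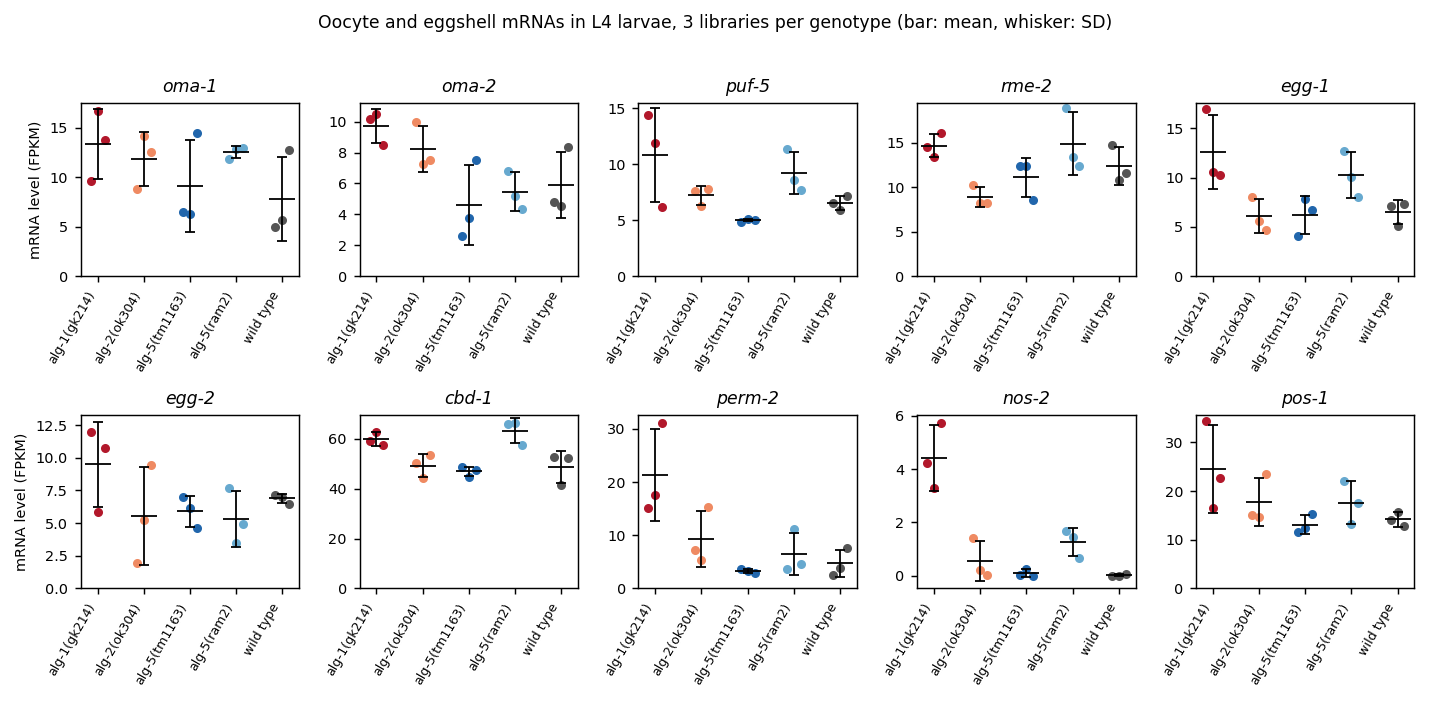
mRNA level in FPKM (vertical axis, linear) of each of the 10 genes in L4 larvae, with the 4 mutants left of wild type. Points are the 3 libraries of a genotype, the bar is their mean and the whisker their SD. nos-2 lies at or near 0 in wild type and at 3.29 to 5.74 FPKM in alg-1(gk214), and the perm-2 libraries of alg-1(gk214) all lie above those of wild type.

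alg-1(gk214) larvae were compared with wild type to see how oocyte and eggshell mRNAs stood at L4 when this Argonaute was mutated. All 10 means were higher in the mutant, and 2 genes rose past the threshold over all genes, perm-2 and nos-2. Over all genes tested, 6.39% were called higher in this comparison. The median log2 change of the 10 was 0.68, beside 0.01 over all genes, and 7 had an unadjusted limma p under 0.05, where 28.1% of all genes did. The groups did not overlap, with the mutant higher, for 6 genes (oma-2, egg-1, cbd-1, perm-2, nos-2 and pos-1), where this held for 13% of all genes. nos-2 entered the test only through alg-1(gk214) and alg-5(ram2), in which it is high. The other 9 averaged at least 3.26 FPKM in every genotype. Among these 9, 1 was called, all 9 changes were positive and the median was 0.67. In RNA of whole animals, more cells of a type and more RNA per cell cannot be told apart.

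perm-2 had the largest change among the 9 genes that were well above 0 in every genotype. PERM-2 is a component of the vitelline layer that is needed for a tight permeability barrier around the embryo. Its mRNA was at 15.2, 17.5 and 31.2 FPKM in alg-1(gk214), against 2.59, 3.93 and 7.57 FPKM in wild type. Every library of the mutant lay above every library of wild type. The level was 21.3 ± 8.64 FPKM in alg-1(gk214) and 4.70 ± 2.58 FPKM in wild type, 4.54-fold higher by the means (log2 2.00, SE 0.446, adjusted p = 0.0079). In alg-2(ok304) the libraries were at 7.20, 5.34 and 15.3 FPKM, 2 of them within the wild type range (log2 0.83, SE 0.446, adjusted p = 0.278). The alg-5 mutants did not differ from wild type past the threshold: alg-5(tm1163) libraries were at 3.65, 3.27 and 2.85 FPKM and those of alg-5(ram2) at 3.73, 11.1 and 4.62 FPKM (adjusted p of 0.844 and 0.921). Between the mutants, perm-2 was higher in alg-1(gk214) than in alg-5(tm1163) by 2.33 (adjusted p = 0.00385) and than in alg-5(ram2) by 1.64 (adjusted p = 0.029). The second of these calls was lost without alg-1(gk214) replicate 2 or 3 or without alg-5(ram2) replicate 1 or 3, with an adjusted p of up to 0.125. Against alg-2(ok304) the difference was 1.17 (95% interval 0.213 to 2.13, adjusted p = 0.236).

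nos-2 encodes a Nanos-family RNA-binding protein that is supplied by the mother and needed by the primordial germ cells of the embryo. It was at 4.23, 3.29 and 5.74 FPKM in alg-1(gk214), against 0, 0 and 0.0546 FPKM in wild type. All 3 mutant libraries held the mRNA at a level that no other genotype reached. The fitted change was 2.39 on the log2 scale (SE 0.369, adjusted p = 0.000589), but with wild type so near 0 its size follows the constant added before the logarithm, and with 0.1 in place of 1 it was 5.25. In alg-2(ok304) the values were 1.40, 0.219 and 0.0416 FPKM, so that 1 library carried most of the signal (log2 0.51, SE 0.369, adjusted p = 0.439). alg-5(tm1163) had 0.0402, 0.249 and 0 FPKM. In alg-5(ram2) all 3 libraries, at 1.69, 1.45 and 0.661 FPKM, lay above all 3 of wild type (log2 1.12, SE 0.369, unadjusted p = 0.0088, adjusted p = 0.379). The mutants were also compared directly. nos-2 was higher in alg-1(gk214) than in alg-5(tm1163) by 2.29 (adjusted p = 0.00109), than in alg-2(ok304) by 1.88 (adjusted p = 0.0212) and than in alg-5(ram2) by 1.26 (adjusted p = 0.0415). The call against alg-2(ok304) was lost without alg-1(gk214) replicate 1 or 3 or alg-2(ok304) replicate 2 or 3 (adjusted p up to 0.0956). That against alg-5(ram2) was lost without any 1 of the 6 libraries, with an adjusted p of 0.0531 to 0.166.

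pos-1, the other maternal regulator, encodes a zinc-finger protein that controls translation in the early embryo. Its levels were 34.5, 16.6 and 22.6 FPKM in alg-1(gk214), against 14.1, 15.7 and 12.8 FPKM in wild type. The groups do not overlap, but the lowest mutant library is close to the highest of wild type (log2 0.69, SE 0.268, adjusted p = 0.104). Without alg-1(gk214) replicate 2 the difference was called (adjusted p = 0.0442). Libraries of alg-2(ok304) had 15.1, 14.6 and 23.5 FPKM, those of alg-5(tm1163) 11.5, 12.4 and 15.2 FPKM, and those of alg-5(ram2) 22.1, 13.3 and 17.5 FPKM. Each of these 3 mutants overlapped wild type, with adjusted p between 0.591 and 0.918.

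The paralogous egg surface proteins EGG-1 and EGG-2, which carry LDL receptor repeats, are needed together for sperm to enter. egg-1 was at 17.0, 10.6 and 10.3 FPKM in alg-1(gk214), against 7.12, 5.12 and 7.36 FPKM in wild type. The mutant libraries were all higher, and the change had an unadjusted p of 0.0137 but did not pass over all genes (log2 0.83, SE 0.296, adjusted p = 0.0765). egg-2 was at 11.9, 5.83 and 10.7 FPKM in alg-1(gk214), against 7.14, 7.02 and 6.49 FPKM in wild type, with the groups overlapping (log2 0.36, 95% interval -0.53 to 1.25, adjusted p = 0.625). How reads shared by paralogs were assigned is not given in the sources used here, so the separate values of egg-1 and egg-2, and of oma-1 and oma-2, are less certain than those of the other genes. egg-1 was at 12.7, 10.1 and 8.03 FPKM in alg-5(ram2), above all wild type libraries (log2 0.58, adjusted p = 0.704), and egg-2 was at 7.68, 3.45 and 4.91 FPKM there (log2 -0.37, adjusted p = 0.909). In alg-2(ok304), egg-1 was at 8.06, 5.57 and 4.72 FPKM and egg-2 at 1.92, 5.26 and 9.42 FPKM, the widest scatter of any of the 10 genes relative to its mean except nos-2. alg-5(tm1163) libraries had 4.05, 7.89 and 6.74 FPKM of egg-1 and 6.97, 6.12 and 4.63 FPKM of egg-2.

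cbd-1 had the smallest standard error of the 10 genes. It was at 59.3, 62.9 and 57.4 FPKM in alg-1(gk214), against 52.7, 41.4 and 52.4 FPKM in wild type. The mutant libraries were higher throughout, by a small step of 1.23-fold (log2 0.30, SE 0.122, adjusted p = 0.127). In alg-5(ram2) the step was of like size, 66.1, 66.3 and 57.6 FPKM, again without overlap with wild type (log2 0.37, unadjusted p = 0.00846, adjusted p = 0.378). alg-2(ok304) libraries were at 50.2, 44.3 and 53.5 FPKM and those of alg-5(tm1163) at 48.6, 44.8 and 47.5 FPKM. Both overlapped wild type, with changes of 0.02 (95% interval -0.24 to 0.28) and -0.05 (95% interval -0.31 to 0.21), and that of alg-5(tm1163) was 0.000691 after upper quartile scaling.

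OMA-1 and OMA-2 are CCCH zinc-finger proteins that act together in oocyte maturation and repress stored mRNAs. oma-1 was at 9.68, 16.7 and 13.8 FPKM in alg-1(gk214), against 4.97, 5.71 and 12.7 FPKM in wild type. A single wild type library, replicate 3, reached the mutant range, and without it the difference was called (log2 1.15, adjusted p = 0.0379, against 0.78 and 0.167 with all libraries). oma-2 was at 10.2, 10.5 and 8.46 FPKM in alg-1(gk214), against 4.81, 4.55 and 8.35 FPKM in wild type, and the groups did not overlap (log2 0.67, SE 0.325, adjusted p = 0.198). Here too wild type replicate 3 was the highest of its group. In alg-2(ok304), oma-1 was at 8.85, 14.2 and 12.6 FPKM and oma-2 at 9.96, 7.25 and 7.55 FPKM, between alg-1(gk214) and wild type by their means. oma-1 stood at 11.9, 12.9 and 13.0 FPKM in alg-5(ram2) (log2 0.73, adjusted p = 0.679), with the narrowest spread of any genotype. oma-2 was at 6.84, 5.196 and 4.35 FPKM there, overlapping wild type. In alg-5(tm1163) replicate 3 was high for both, with oma-1 at 6.50, 6.30 and 14.5 FPKM and oma-2 at 2.58, 3.77 and 7.55 FPKM.

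PUF-5 is a Pumilio-family protein that acts with its close relatives PUF-6 and PUF-7 in late oocyte formation. Its mRNA was at 14.4, 11.9 and 6.22 FPKM in alg-1(gk214), against 6.52, 5.95 and 7.15 FPKM in wild type. Replicate 3 of the mutant lay inside the wild type range, and without it the difference was called (log2 0.90, adjusted p = 0.0254, against 0.58 and 0.177 with all libraries). puf-5 levels were 11.3, 8.62 and 7.75 FPKM in alg-5(ram2), all above wild type (log2 0.43, adjusted p = 0.777), and 4.89, 5.13 and 5.04 FPKM in alg-5(tm1163), all below it (log2 -0.32, adjusted p = 0.71). In alg-2(ok304) they were 7.64, 6.24 and 7.83 FPKM, overlapping wild type.

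rme-2 encodes the LDL-receptor family protein by which oocytes take up yolk. Its mRNA was at 14.6, 13.4 and 16.1 FPKM in alg-1(gk214), against 14.8, 10.8 and 11.6 FPKM in wild type, the smallest change of the 10 genes in this mutant (log2 0.24, SE 0.217, adjusted p = 0.525). In alg-2(ok304) it was at 10.2, 8.21 and 8.22 FPKM, each below the lowest wild type library, but not past the threshold (log2 -0.43, SE 0.217, adjusted p = 0.24). Set directly against alg-2(ok304), alg-1(gk214) was higher by 0.67 (95% interval 0.204 to 1.14, unadjusted p = 0.00809, adjusted p = 0.152). alg-5(tm1163) had 12.4, 12.4 and 8.58 FPKM and alg-5(ram2) 18.95, 13.4 and 12.4 FPKM, both overlapping wild type.

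**Figure D2:**
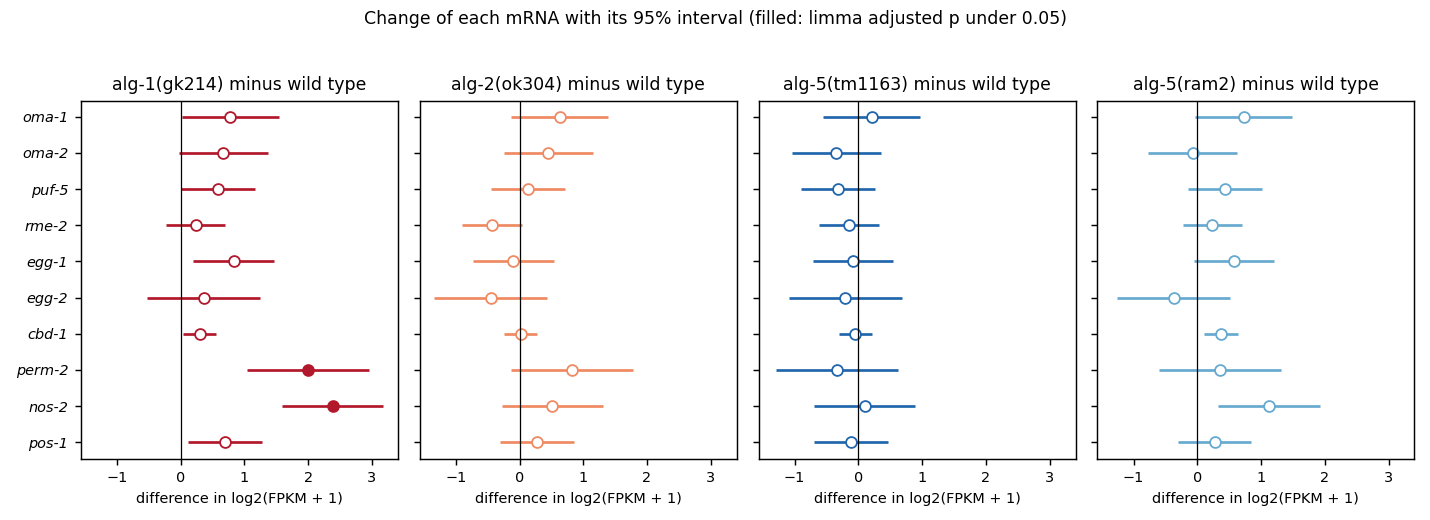
Difference of each gene's log2(FPKM + 1) between mutant and wild type (horizontal axis), with its 95% interval from limma, in 1 panel per mutant. Filled points have an adjusted p under 0.05: perm-2 and nos-2 in alg-1(gk214). All 10 points lie right of 0 for alg-1(gk214), while 8 of 10 lie left of it for alg-5(tm1163).

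The other 3 mutants gave 0 calls among the 10 genes. All 4 mutants were compared with the same 3 wild type libraries, so the comparisons are not independent of each other. In alg-2(ok304), 0 of the 10 genes were called and 0 had an unadjusted limma p under 0.05, where 12% of all genes were called and 24.7% had such a p. Changes were positive for 7 genes with a median of 0.20, or 0.12 without nos-2, beside 0.00 over all genes. That median was 0.117, 0.303 and 0.0687 without alg-2(ok304) replicate 1, 2 and 3. rme-2 was the 1 gene whose groups did not overlap with the mutant lower, as for 14.5% of all genes. In alg-5(tm1163), limma called 0 of the 10 and 0 had an unadjusted p under 0.05, where 0.0857% of all genes were called and 10.8% had such a p. The change was negative for 8 of the 10, with a median of -0.13 beside 0.00 over all genes, and puf-5 was the 1 gene without overlap, as for 6.97% of all genes on that side. The median was -0.0711 and -0.232 without alg-5(tm1163) replicate 1 and 2, and -0.0736, -0.21 and -0.0567 without wild type replicate 1, 2 and 3. Without wild type replicate 3 the change was positive for 4 of the 10. After upper quartile scaling the median was -0.0868. In alg-5(ram2), limma called 0 of the 10, where 0.29% of all genes were called, and 2 had an unadjusted p under 0.05 (cbd-1 and nos-2), as did 7.68% of all genes. Here 8 changes were positive with a median of 0.37 beside 0.01 over all genes, and puf-5, egg-1, cbd-1 and nos-2 were higher without overlap, as for 5.75% of all genes. Without nos-2, which entered the test only through alg-1(gk214) and alg-5(ram2), 7 of the other 9 changes were positive with a median of 0.36.

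The 2 alg-5 alleles were also set against each other. alg-5(ram2) had the higher mean for 9 of the 10 genes, with a median difference of 0.47 (0.42 without nos-2) beside 0.01 over all genes. Without nos-2, which entered the test only through alg-1(gk214) and alg-5(ram2), 8 of the other 9 log2 differences were positive. limma called 0 of them, where 0.0791% of all genes were called, and 4 had an unadjusted p under 0.05, as did 5.73% of all genes. These were cbd-1 (log2 0.42), puf-5 (0.75), nos-2 (1.02) and egg-1 (0.66), with limma p between 0.00391 and 0.042 before adjustment and adjusted p between 0.502 and 0.861. The groups did not overlap for 5 genes, the same 4 and perm-2, where 6.47% of all genes did so with alg-5(ram2) higher. The sperm genes lay on the same side by their sums, at 1913 to 2375 FPKM in alg-5(ram2) and 1035 to 1521 FPKM in alg-5(tm1163). Of these 26 genes, 22 had a positive log2 difference, limma called 0, and 10 had an unadjusted limma p under 0.05. Their part in the result was not tested.

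alg-1(gk214) was above each of the other mutants by its median. Against alg-5(tm1163) all 10 means were higher, with a median of 0.86, 2 genes called (perm-2 and nos-2, where 4.01% of all genes were called higher) and 8 without overlap, as for 12.9% of all genes. These counts include nos-2, which entered the test only through alg-1(gk214) and alg-5(ram2). Without nos-2, limma called 1 of the other 9 genes and their median was 0.81. Calls were added for puf-5 without alg-1(gk214) replicate 3 (adjusted p = 0.00593), for oma-2 without alg-5(tm1163) replicate 3 (adjusted p = 0.0171) and for pos-1 without alg-1(gk214) replicate 2 (adjusted p = 0.0358). Against alg-2(ok304) all 10 means were higher, with a median of 0.56 and 1 gene called (nos-2, where 0.652% of all genes were called higher). Without nos-2, limma called 0 of the other 9 genes there and their median was 0.46, with 4 of them at an unadjusted p under 0.05. Such a p was found for 2164 of the 15174 genes. Against alg-5(ram2), 8 means were higher with a median of 0.34, and 2 genes were called (perm-2 and nos-2, where 4.96% of all genes were called higher). That median was 0.26 without nos-2, with 1 of the other 9 genes called, and 0.205 and 0.511 without alg-1(gk214) replicate 1 and 2. The 95% interval of the difference from alg-5(ram2) was -0.47 to 0.46 for rme-2 and -0.34 to 0.18 for cbd-1.

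Markers of other tissues and of stage also differed from wild type in alg-1(gk214), and several of them in other mutants too. The 6 vitellogenin genes, which the intestine transcribes for the yolk that RME-2 takes up, summed to 85.5 to 117 FPKM in alg-1(gk214), 41.3 to 85.5 FPKM in alg-2(ok304) and 32.7 to 44 FPKM in wild type. Of these 6 genes, 5 rose in alg-1(gk214) and 3 in alg-2(ok304). Of the 15174 genes, 969 and 739 rose in these mutants and 1276 and 1075 fell. The adult cuticle collagen gene col-19 was at 45.2 to 60.6 FPKM in alg-1(gk214) and 23.7 to 42.7 FPKM in alg-2(ok304), against 0.188 to 3.37 FPKM in wild type. Sperm genes were lower, at a sum of 899 to 1435 FPKM in alg-1(gk214) and 508 to 645 FPKM in alg-2(ok304), against 2442 to 2939 FPKM in wild type, and 16 and 20 of the 26 fell. In alg-5(tm1163) they summed to 1035 to 1521 FPKM, and 2 of the 26 were called lower, as were 8 of the 15174 genes. In alg-5(ram2) they summed to 1913 to 2375 FPKM, and 0 of the 26 were called, where 0.29% of all genes were. The part of these shifts in the oocyte and eggshell values was not tested. For 15 genes of the germ line without oocyte bias the sums were 430 to 478 FPKM in alg-1(gk214), against 353 to 462 FPKM in wild type, and limma called 0 of the 15 (0 at an unadjusted p under 0.05). The 7 somatic gonad genes summed to 80.9 to 94.9 FPKM in alg-1(gk214), against 66.9 to 76.1 FPKM in wild type. Of these, ehn-3 was listed at 0 in every genotype and 1, inx-9, fell.

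A further 30 genes were read beside the 10: 19 regulators of the oocyte and early embryo and 11 genes listed under eggshell and egg activation. They were listed by function, except egg-6, which was listed by name. In alg-1(gk214), 4 of the 30 rose and 1 fell, where 969 of the 15174 genes rose and 1276 fell. The median change of the 30 was 0.21. The regulators that rose were lin-41, whose TRIM-NHL protein keeps oocytes growing and blocks their premature maturation and which is also a timing gene of the epidermis, and spn-4, an RNA-binding protein of the early embryo. lin-41 was at 14.5 ± 0.909 FPKM in alg-1(gk214) and 6.75 ± 1.13 FPKM in wild type (log2 1.01, adjusted p = 0.0127), and spn-4 at 42.4 ± 1.49 and 29.9 ± 3.07 FPKM (log2 0.50, adjusted p = 0.0325). The eggshell genes that rose were cpg-3, of the chondroitin proteoglycan family, and perm-4, which acts in the permeability barrier as perm-2 does. cpg-3 was at 12.9 ± 9.47 FPKM in alg-1(gk214) and 1.33 ± 1.61 FPKM in wild type (log2 2.61, adjusted p = 0.01), and perm-4 at 7.67 ± 1.97 and 2.37 ± 1.27 FPKM (log2 1.41, adjusted p = 0.0191). The gene that fell, egg-6, is grouped here by name. Its leucine-rich repeat protein is known from the apical matrix of epithelia such as the excretory duct, and its mRNA was at 19.2 ± 2.88 FPKM in alg-1(gk214) and 32.2 ± 4.74 FPKM in wild type (log2 -0.72, adjusted p = 0.00502). The other regulators lay near 0 in most cases, with a median of 0.06 over the 19, while the median of the 11 eggshell genes was 0.45.

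With only alg-1(gk214) and wild type in the model, limma called 0 of the 30, and the cause was not tested. lin-41, egg-6 and cpg-3 passed without each single library of the 2 groups. spn-4 and perm-4 did not pass without alg-1(gk214) replicate 1 or 3, which left 3 calls, and spn-4 also lost its call without alg-1(gk214) replicate 2 or wild type replicate 1 or 2, perm-4 also without wild type replicate 3.

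**Figure D3:**
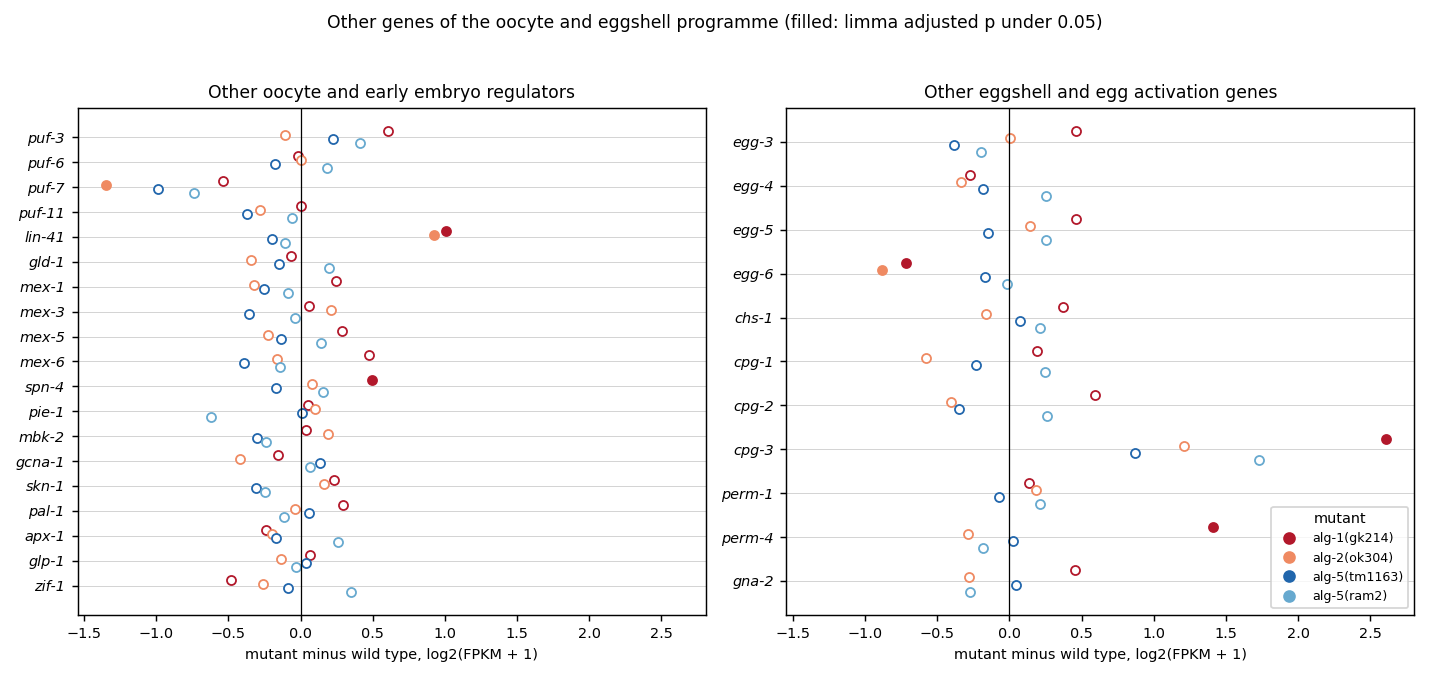
Difference of log2(FPKM + 1) between each mutant and wild type (horizontal axis) for 19 other oocyte and early embryo regulators and 11 other eggshell and egg activation genes. Of the latter, egg-6 was listed by name and not by function. Filled points have an adjusted p under 0.05: 5 in alg-1(gk214), 3 in alg-2(ok304) and 0 in either alg-5 mutant.

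In alg-2(ok304), 1 of the 30 rose and 2 fell, with a median of -0.16, where 739 of the 15174 genes rose and 1075 fell. lin-41 was at 13.7 ± 2.07 FPKM in alg-2(ok304) and 6.75 ± 1.13 FPKM in wild type (log2 0.93, adjusted p = 0.0227), a call lost without alg-2(ok304) replicate 1, without wild type replicate 3 or with only these 2 groups in the model. egg-6 fell to 16.8 ± 0.688 FPKM in alg-2(ok304), against 32.2 ± 4.74 FPKM in wild type (log2 -0.89, adjusted p = 0.00128). puf-7, the relative of puf-5, fell to 2.87 ± 0.0814 FPKM in alg-2(ok304), against 8.91 ± 1.47 FPKM in wild type (log2 -1.35, adjusted p = 0.00518). puf-5 itself differed there by 0.12 (adjusted p = 0.842). How reads shared between puf-7 and its close relatives were assigned is not given in the sources used here, so the separate puf-7 value is less certain. The eggshell list as a whole had a median of -0.28 in alg-2(ok304), and perm-4, called in alg-1(gk214), was at 1.69 ± 0.690 FPKM in alg-2(ok304) (log2 -0.29, adjusted p = 0.696). In alg-5(tm1163) and alg-5(ram2), limma called 0 of the 30, with 3 and 2 at an unadjusted p under 0.05 and medians of -0.17 and 0.03. Over all genes, 0.0857% and 0.29% were called, and 10.8% and 7.68% had such a p.

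Set directly against alg-2(ok304), alg-1(gk214) had more perm-4 mRNA, by 1.70 (adjusted p = 0.0353), and more cpg-2, by 1.00, at 47.6 ± 7.14 against 23.2 ± 3.04 FPKM (adjusted p = 0.0439). Of all genes, 0.652% were called higher in alg-1(gk214) there. CPG-2 is a chondroitin proteoglycan of the inner eggshell. Both calls were lost without alg-1(gk214) replicate 1 or 3 or without any alg-2(ok304) library, and the cpg-2 call also without alg-1(gk214) replicate 2. Against alg-5(tm1163), 5 genes were higher in alg-1(gk214), by 1.38 for perm-4, 1.21 for lin-41, 0.95 for cpg-2, 0.66 for spn-4 and 0.54 for skn-1, and egg-6 was lower (log2 -0.55). The adjusted p of these 6 lay between 0.00558 and 0.0321, and 3 calls were left without alg-1(gk214) replicate 1, without alg-1(gk214) replicate 3 or without alg-5(tm1163) replicate 3. Only lin-41 and spn-4 kept their calls without each single library, and perm-4, cpg-2, egg-6 and skn-1 did not. Of the 15174 genes, 608 were called higher in this comparison and 796 lower. Against alg-5(ram2), 753 of the 15174 genes were called higher in alg-1(gk214) and 895 lower. Of the 30, perm-4, lin-41 and skn-1 were higher, by 1.59, 1.12 and 0.47, and zif-1 and egg-6 lower, by -0.83 and -0.70. lin-41, perm-4 and egg-6 kept these calls without each single library, and they were the 3 calls left without alg-1(gk214) replicate 3 or without alg-5(ram2) replicate 1 or 3. skn-1 encodes a transcription factor that specifies endoderm and mesoderm precursors of the embryo, and ZIF-1 marks germ plasm proteins for removal from somatic cells. Between the alg-5 alleles 0 of the 30 were called, where 0.0791% of all genes were. An unadjusted limma p under 0.05 was found for 4 of the 30 and for 5.73% of all genes.

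How far the 10 genes varied together was described over the 15 libraries, without a test, since libraries of a genotype share its shift. Pearson's r of a gene with the mean standardized profile of the other 9 was highest for nos-2 (0.846), egg-1 (0.791), puf-5 (0.786), cbd-1 (0.736) and pos-1 (0.717). It was lowest for egg-2 (0.272), oma-1 (0.422) and rme-2 (0.442), so the paralogs egg-1 and egg-2 stood at opposite ends. Among 10761 other genes that averaged 5 FPKM or more, the median r with the profile of the 10 was 0.0196, and 15 genes exceeded 0.8. The 6 highest were npp-12 (0.9), a nucleoporin gene, mtk-1 (0.899), a MAP kinase kinase kinase gene, the chaperone gene hsp-90 (0.888), ifet-1 (0.871), whose protein represses translation in germ granules, gln-6 (0.867), a glutamine synthetase gene, and the co-chaperone gene dnj-13 (0.857). All 6 had their highest mean in alg-1(gk214), which follows from the way they were picked, as the profile of the 10 is highest there. hsp-90 averaged 1639 FPKM in alg-1(gk214) and 1147 FPKM in wild type, and ifet-1 116 FPKM in alg-1(gk214) and 98.0 FPKM in wild type.

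Small RNAs over the same genes came from the deposited table of siRNAs of the CSR-1 pathway. CSR-1 is a germline Argonaute that binds short antisense RNAs made by an RNA-dependent RNA polymerase on many germline mRNAs. Of the 10 genes, 9 are among its 3639 loci, perm-2 is not, and 0 are in the table of Mutator-class siRNAs. The values are RPM, read counts scaled to the size of the library. Gravid adults were collected at 68 h and L4 larvae at 49 h. Except for the 3 wild type adult libraries, each group is 1 library, so no test was made. The 18 libraries hold 1622092 to 24518714 reads. Intervals are exact 95% intervals that cover counting error alone, as no molecular identifiers were used.

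In wild type, siRNAs over all 9 genes were more abundant in adults than in L4 larvae, by 2.66-fold to 18.2-fold with a median of 6.56. Over 3327 genes of the table the median ratio was 3.12, and 95.7% were above 1. puf-5 had the largest ratio, with 61.9, 85.7 and 114 RPM in the 3 adult libraries, against 4.78 RPM in L4 larvae. rme-2 siRNAs were at 93.0, 133 and 253 RPM in adults and 10.9 RPM in L4 larvae, and oma-2 siRNAs at 9.84, 15.4 and 19.6 RPM in adults and 1.52 RPM in L4 larvae. These 3 genes and egg-1 (9.76-fold) lay above 96.5% or more of the table. cbd-1 stood apart at the low end: 106, 149 and 186 RPM in adults and 55.1 RPM in L4 larvae. cbd-1 siRNAs were the most abundant of the 9 in larvae by RPM, above 96.1% of the table, and its mRNA was the highest by FPKM. RPM are not divided by transcript length as FPKM are, so these ranks are of unlike measures. The ratios of egg-2, pos-1, nos-2 and oma-1 were 6.56, 4.74, 3.86 and 3.56. nos-2 siRNAs were at 3.03 RPM (66 reads) in wild type L4 larvae, where its mRNA was at or near 0. The adult libraries differed among themselves by 1.72-fold to 2.72-fold, with the first lowest and the third highest for each of the 9 genes, and the third also had the most siRNA in the table as a whole. The L4 library is the only wild type library of its experiment, so stage and experiment cannot be told apart.

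**Figure D4:**
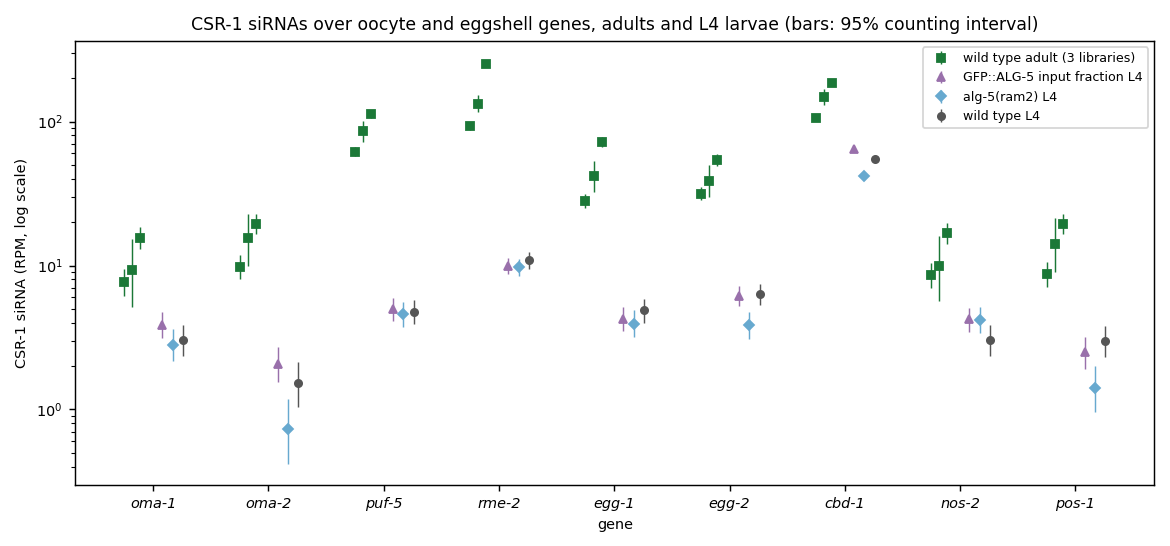
CSR-1 class siRNAs over 9 genes in RPM (vertical axis, log scale), with wild type adults left of 3 L4 libraries (GFP::ALG-5 input, alg-5(ram2), wild type). Each point is 1 library, with the 3 adult libraries side by side, and bars are exact 95% intervals for counting error. Adult values lie above the L4 values for all 9 genes, with the smallest gap for cbd-1.

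Each mutant library was read against the wild type library of its own experiment. In adult alg-1(gk214), siRNAs over all 9 genes were lower, with a median ratio of 0.687, beside 0.756 over the table, where 21.8% of ratios were above 1. Adults of this mutant and of wild type were both collected at 68 h, whereas its L4 larvae were matched by stage at 53 h in place of 49 h. The part of developmental age in these ratios was not tested. The widest gap was at puf-5, with 45.9 RPM in alg-1(gk214) and 85.7 RPM in wild type, a ratio of 0.535 (0.421 to 0.682), and the smallest at pos-1, 0.987 (0.582 to 1.72). In adult alg-2(ok304) the median was 1.05, the same as over the table. pos-1 was the 1 gene whose interval left out 1, at 25.2 RPM in alg-2(ok304) and 14.2 RPM in wild type, a ratio of 1.78 (1.07 to 3.05) from 50 and 23 reads. In adult alg-5(tm1163) all 9 ratios were above 1, from 1.01 to 1.40 with a median of 1.08 beside 1.00 over the table, where 49.8% were above 1. oma-1 had the largest, with 21.6 RPM in alg-5(tm1163) and 15.5 RPM in wild type (1.11 to 1.76). Each of these ratios of single genes is smaller than that gene's range among the 3 wild type adult libraries, except puf-5 in alg-1(gk214), where the range is 1.83-fold.

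In alg-5(ram2) L4 larvae, 8 of the 9 ratios to wild type were below 1, with a median of 0.812 beside 1.03 over the table, where 55.2% were above 1. pos-1 siRNAs were at 1.41 RPM in alg-5(ram2) and 2.99 RPM in wild type (ratio 0.472, 0.297 to 0.734), and oma-2 siRNAs at 0.727 RPM in alg-5(ram2) and 1.52 RPM in wild type (0.479, 0.246 to 0.896). Both are among the lowest 1.89% of the table. egg-2 (0.609) and cbd-1 (0.758) were lower beyond counting error as well. nos-2 was the exception, at 4.204 RPM in alg-5(ram2) and 3.03 RPM in wild type (1.39, 0.994 to 1.92). The spread between L4 libraries of 1 genotype is not known.

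Immunoprecipitates of tagged Argonautes were read against their inputs. HA::ALG-1 and ALG-1::HA::ALG-2 were expressed in alg-1(gk214) animals, HA::ALG-2 in alg-2(ok304) animals and HA::ALG-5 in alg-5(tm1163) animals, all adult, while GFP::ALG-5 was tagged at its own locus and taken from L4 larvae. In the HA::ALG-1, HA::ALG-2 and ALG-1::HA::ALG-2 precipitates siRNAs over all 9 genes were lower than in the inputs, with median ratios to input of 0.152, 0.0993 and 0.0973, beside 0.175, 0.107 and 0.127 over the table. Nearly the whole table was lower there as well, with 0%, 0% and 0.0281% of its ratios above 1. In the HA::ALG-5 precipitate all 9 ratios were below 1, from 0.745 to 0.963 with a median of 0.9, beside 0.794 over the table, where 10.4% were above 1. Only the intervals of cbd-1 (0.745, 0.651 to 0.85) and rme-2 (0.823, 0.732 to 0.926) left out 1. In the GFP::ALG-5 precipitate of L4 larvae they were scattered, from 0.0284 to 2.21 with a median of 0.488, beside 0.459 over the table. There pos-1 was at 5.51 RPM in the precipitate and 2.49 RPM in the input, a ratio of 2.21 (1.31 to 3.63) from 23 and 61 reads, higher than 99.9% of the table. egg-1 also had 23 reads in the precipitate, at a ratio of 1.29 (0.781 to 2.03), and nos-2 had less than 1 read in the precipitate (up to 0.883 RPM by its interval) and 103 in the input. This precipitate holds 4177807 reads, so the ratios of single genes rest on 0 to 132 reads.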

How the data were processed

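For mRNA the authors deposited FPKM for each gene and library, in a sheet named for Cuffdiff. The submitters' processing notes name Trimmomatic 0.35, TopHat2, HTSeq, DESeq2 and Cuffdiff without roles; genome build and annotation are not given in the sources used here, so no positions are printed. The dUTP libraries keep strand, per the labels' protocols. Read depth of the mRNA libraries is unknown, so no counting interval is given for FPKM. For small RNAs the authors deposited RPM, read counts scaled to library size. In the deposited 21U piRNA table, 99.1% to 99.6% of values came within 0.02 of a whole multiple of 1 step, which gave each library's total reads; siRNA reads were computed from these totals and rounded.

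limma 3.58.1 (R 4.3.3) was fitted with a mean-variance trend to log2(FPKM + 1) of all 15 libraries in 1 model, 10 residual and 3.87 prior degrees of freedom, two-sided, for 8 comparisons, with Benjamini-Hochberg adjustment over the 15174 genes. FPKM are not counts, so no count test was run. Alternatives were a pseudocount of 0.1, no filter, a filter at 5 FPKM, upper quartile scaling, a replicate block, only the compared groups, and each library left out. siRNA ratios carry exact binomial intervals (scipy 1.17.1); table medians use genes of at least 1 RPM in the denominator and in the wild type adult mean.

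Of the gene IDs, 20063 matched a RefSeq locus tag. The members, the gene lists and the comparisons were chosen with earlier results of these data known. All 10 genes are named in every comparison; of the 30 others, those called, at most 6 per comparison by size; and the 6 genes of at least 5 FPKM most like the mean profile. The miRNA table was not used here.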

Additional observations from a re-analysis of the deposited data

How the results depend on the processing

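perm-2 and nos-2 were called higher in alg-1(gk214) than in wild type under every alternative in which they were tested; a filter at 5 FPKM removes nos-2 and leaves 1 call in place of 2. The count against wild type was 2 to 3 with a library left out. Against alg-5(tm1163) it was also 2 to 3, and the filter at 5 FPKM left 2 calls, perm-2 and puf-5 (adjusted p = 0.0407) in place of nos-2. Against alg-2(ok304) the 1 call became 0 with a pseudocount of 0.1, the filter at 5 FPKM or only the compared groups, and 0 to 1 with a library left out. Against alg-5(ram2) the 2 calls became 1 with a pseudocount of 0.1, the filter, upper quartile scaling or only the compared groups, and 0 to 1 with a library left out. Of the 30 other genes, the 5 calls against wild type became 0 with only the compared groups and 3 to 5 with a library left out. The 2 against alg-2(ok304) became 1 with a pseudocount of 0.1, with no filter or with only the compared groups, and 0 to 1 with a library left out. The 6 against alg-5(tm1163) became 2 with only the compared groups and 3 to 5 with a library left out, and the 5 against alg-5(ram2) became 3 to 4. The cause was not tested. Over all genes, upper quartile scaling changed the share of higher among called genes to 51% in place of 40.7% in alg-2(ok304) against wild type, and to 24.3% in place of 41.1% in alg-1(gk214) against alg-2(ok304). Upper quartile factors were 0.919 to 1.09. FPKM keep no depth, so single low values cannot be given a floor.

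Libraries with the same replicate number deviated together weakly at most: 0 of 30 pairs had a correlation over 0.1 (-0.0255 to 0.0904). Pairs of replicate 1 lay between 0.0221 and 0.0904. Over all genes, a block by this number gave 2458 calls in place of 2245 in alg-1(gk214) against wild type. In alg-5(tm1163) against wild type it gave 9 in place of 13. Whether the number marks a shared batch was not tested. With the replicate number as a block, the calls in alg-1(gk214) against alg-5(ram2) fell to 1 of the 10 genes (nos-2 at an adjusted p of 0.0504), and the counts against wild type did not change.

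Of the log2 differences of the 10 genes under the alternatives, 897 kept direction and side of the threshold, 20 lost a call, 7 gained one and 26 changed sign, all 26 of them not called. Upper quartile scaling turned the sign of cbd-1 in alg-5(tm1163) against wild type (0.000691), oma-2 in alg-5(ram2) against wild type (0.0158) and oma-1 in alg-1(gk214) against alg-5(ram2) (-0.0189). The rest turned with a library left out, with these lowest and highest values. In alg-2(ok304) against wild type these were egg-1 (-0.284 to 0.0477), egg-2 (-0.881 to 0.0362) and cbd-1 (-0.0933 to 0.0929). In alg-5(tm1163) against wild type they were oma-1 (-0.148 to 0.58), rme-2 (-0.235 to 0.0105), egg-1 (-0.255 to 0.152), cbd-1 (-0.16 to 0.0107) and perm-2 (-0.615 to 0.0134), and in alg-5(ram2) oma-2 (-0.22 to 0.169) and perm-2 (-0.0473 to 0.706). For alg-1(gk214) they were oma-1 against alg-2(ok304) (-0.0278 to 0.352) and, against alg-5(ram2), oma-1 (-0.109 to 0.254), puf-5 (-0.0714 to 0.475) and rme-2 (-0.115 to 0.173). In alg-5(ram2) against alg-5(tm1163) they were oma-2 (-0.000477 to 0.628) and egg-2 (-0.415 to 0.0663).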
